A study of Mus musculus with 6 samples.

Results

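The cluster of miR-322, miR-503, miR-351, miR-542 and miR-450 is a group of miRNA hairpins that lie together on the X chromosome of the mouse. Its level was followed in nephron progenitors, which lie in the outer kidney and give rise to nephrons, in E14.5 embryos and in newborns (P0). The 9 mature miRNAs described here were chosen by name, as rows of the deposited expression table, and all 9 were found among its 1034 distinct miRNAs. They are mmu-miR-322-5p, mmu-miR-322-3p, mmu-miR-503-5p, mmu-miR-503-3p, mmu-miR-351-5p, mmu-miR-542-3p, mmu-miR-542-5p, mmu-miR-450a-5p and mmu-miR-450b-5p, written below without the species prefix. Another 4 mature arms of the same hairpins were not on that list and are given separately.

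The 6 libraries came from CD1 mice with no drug or genotype named in the labels, 3 at E14.5 and 3 at P0, and each held progenitors from the pooled kidneys of a litter. A brief treatment with enzymes freed cells of the cortex, from which progenitors were picked with antibody beads against the surface protein Itga8. The values are TPM, read counts scaled for length and library total, and cover miRNAs only, so the progenitor marker genes Six2 and Itga8 were not measured here. A lower level in such bulk samples can mean fewer cells of a type or less RNA per cell, and the 2 cannot be told apart.

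miRNAs are short RNAs cut from the 5′ arm (5p) and the 3′ arm (3p) of a hairpin. Usually 1 arm is loaded into the silencing complex in larger amount, and bases 2 to 8, the seed, choose the mRNAs that are repressed. The cluster, whose first miRNA is called miR-424 in humans, is linked to the cell cycle: miR-322 carries the seed of miR-15 and miR-16, miR-503 shares bases 2 to 7 of it, and both repress cyclins and Cdc25a. miR-351 carries the seed of miR-125, and miR-542-3p is known to repress the survival gene Birc5.

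The 9 mature sequences are printed because the values below differ between arms and seeds of the cluster. They are from RefSeq (GRCm38.p6), all lie on the minus strand of chromosome X, and capitals mark the seed. The first pair shares bases 2 to 7 with each other and with miR-16-5p. miR-351-5p shares the whole seed with miR-125a-5p and miR-125b-5p. The last pair differs within the seed.
miR-322-5p: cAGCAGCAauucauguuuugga
miR-503-5p: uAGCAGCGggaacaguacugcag
miR-351-5p: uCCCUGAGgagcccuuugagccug
miR-322-3p: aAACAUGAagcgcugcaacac
miR-503-3p: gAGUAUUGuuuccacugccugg
miR-542-5p: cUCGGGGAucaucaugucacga
miR-542-3p: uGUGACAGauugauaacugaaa
miR-450a-5p: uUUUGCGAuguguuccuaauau
miR-450b-5p: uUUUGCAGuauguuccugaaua

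In GRCm38 the 7 hairpins span 6353 bases, chrX:53047997-53054349. In the direction of transcription they stand in the order Mir322, Mir503, Mir351, Mir542, Mir450-2, Mir450-1 and Mir450b. Mir503 begins 295 bases after the start of Mir322, Mir351 996 bases after it, Mir542 4862 bases after it and Mir450b 6271 bases after it. No other GENCODE M21 gene covers any of the hairpins. The processed transcript C430049B03Rik ends 697 bases upstream of Mir322 on the same strand, and the lincRNA Gm28730 lies between Mir351 and Mir542. miR-450a-5p has the same sequence in Mir450-1 and Mir450-2, and its row at Mir450-2 (chrX:53048339-53048360), the higher one, is used.

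The libraries held between 2649506 and 34934526 recovered reads. The 2 smallest libraries, replicates 1 and 3, were both from E14.5, so depth partly followed stage. The least counted member value was 40 reads, for miR-450a-5p in P0 replicate 3. P0 replicate 1 stood apart: on the first principal component, with 74.8% of the variance, it scored 1.14, between the E14.5 libraries (−26.2 to −16.2) and the other P0 libraries (33.2 and 33.5). Stage differences of the members are therefore given with and without it, and 3 values of a stage are always listed in the order of replicates 1, 2 and 3. Over the 670 miRNAs that averaged 1 TPM or more, the median log2 fold change between the stages, P0 minus E14.5, was −1.20 in TPM. After median-of-ratios scaling, which sets the typical miRNA level, it was −0.17. A member near −1.20 in TPM thus changed like a typical miRNA. Without P0 replicate 1, over 689 miRNAs, the medians were −1.40 in TPM and −0.25 after scaling.

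In TPM the cluster as a whole was lower in the P0 libraries, and the direction of its sum turned with the scaling. The 9 members summed to 15986, 12298 and 12630 TPM in the E14.5 libraries. The P0 sums were 10320, 5793 and 4889 TPM. The stages did not overlap, and P0 replicate 1 lay nearer to E14.5 than the other P0 libraries did. The mean was 13638 ± 2040 TPM over the E14.5 libraries, against 7000 ± 2910 over those of P0 (SD, n = 3), or 5341 over P0 replicates 2 and 3. After median-of-ratios scaling the sums were 10544, 8375 and 7313 in the E14.5 libraries, against 11681, 11147 and 8631 in those of P0, so the stages overlapped and the P0 mean was the higher one. These means were 8744 ± 1647 and 10486 ± 1629 (SD, n = 3), with 9889 over P0 replicates 2 and 3.

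miR-322-5p, the main product of the first hairpin (chrX:53054306-53054327), was the most abundant member in every E14.5 library. It had 8451, 5181 and 5525 TPM in the E14.5 libraries, against 5207, 1154 and 1119 TPM in those of P0. P0 replicate 1 fell inside the E14.5 range, while the other P0 libraries lay far below it. Its log2 fold change in TPM was −1.72 (SE 0.61, limma adjusted p = 0.0450), so it fell, and stood −0.53 from the typical miRNA. This call was close to the threshold and was lost in several other settings, given below. After median-of-ratios scaling the change was −0.43 (SE 0.51, limma adjusted p = 0.580). With P0 replicate 1 left out it was −2.45 in TPM (limma adjusted p = 4.56e-05), and on the scaled values −0.92 (0.0347).

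miR-322-3p (chrX:53054269-53054289), the arm opposite miR-322-5p, had 892, 1048 and 761 TPM in the E14.5 libraries. The P0 libraries held 361, 115 and 101 TPM. Every P0 library was below every E14.5 library. The log2 fold change in TPM was −2.46 (SE 0.59, limma adjusted p = 0.00939), a fall that stood −1.27 from the typical miRNA. After scaling it was −1.17 (SE 0.47, limma adjusted p = 0.112), still with no overlap between the stages. Leaving out P0 replicate 1, the change was −3.04 in TPM (limma adjusted p = 1.41e-05), and on the scaled values −1.52 (0.00510).

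miR-503-5p (chrX:53054027-53054049), the second carrier of the miR-16-like seed, had 1827, 1673 and 1692 TPM in the E14.5 libraries. The P0 libraries held 1356, 439 and 403 TPM. The E14.5 libraries were close together and all above the P0 libraries. The log2 fold change in TPM was −1.48 (SE 0.56, limma adjusted p = 0.0567), which missed the threshold of 0.05. After scaling it was −0.18 (SE 0.44, limma adjusted p = 0.798). When P0 replicate 1 was left out, it passed in TPM, at −2.04 (limma adjusted p = 9.12e-05), and did not after scaling, at −0.51 (0.130).

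miR-503-3p (chrX:53053987-53054008) had 1172, 633 and 1071 TPM in the E14.5 libraries, against 344, 571 and 583 TPM in those of P0. All P0 libraries were below E14.5, and here P0 replicate 1 was the lowest library, not the highest of P0. The log2 fold change was −0.93 in TPM (SE 0.52, limma adjusted p = 0.162) and 0.36 after scaling (SE 0.51, limma adjusted p = 0.643). Its direction therefore depended on the scaling, and neither value passed. Without P0 replicate 1 the change was −0.68 in TPM (limma adjusted p = 0.0927), and on the scaled values 0.85 (0.0518).

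miR-351-5p (chrX:53053315-53053338), which carries the miR-125 seed, stood above the typical miRNA in its change. It had 1515, 2456 and 1736 TPM in the E14.5 libraries, against 2149, 3202 and 2324 TPM in those of P0. The stages overlapped in TPM and did not after scaling, where every P0 library was higher. The log2 fold change was 0.44 in TPM (SE 0.47, limma adjusted p = 0.454), 1.63 above the typical miRNA. After median-of-ratios scaling it was 1.73 (SE 0.47, limma adjusted p = 0.0469). With P0 replicate 1 removed, it was 0.55 in TPM (limma adjusted p = 0.137), and on the scaled values 2.08 (0.00160).

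The arms of the Mir542 hairpin differed in the sign of their change. miR-542-3p (chrX:53049415-53049436) had 1596, 1056 and 1436 TPM in the E14.5 libraries. The P0 libraries held 780, 91.6 and 106 TPM, all below E14.5. It fell in TPM, with a log2 value for the change of −2.77 (SE 0.74, limma adjusted p = 0.0149). After scaling the change was −1.48 (SE 0.62, limma adjusted p = 0.128), and without P0 replicate 1 it was −2.23 on that scale (0.000645) and −3.76 in TPM (4.71e-06).

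miR-542-5p (chrX:53049453-53049474), the minor arm at E14.5, had 66.3, 64.5 and 67.9 TPM in the E14.5 libraries. The P0 libraries held 79.4, 136 and 157 TPM. Every P0 library was higher in TPM and after scaling, and of the 9 members it alone was higher in all P0 libraries in TPM. The log2 fold change was 0.84 in TPM (SE 0.55, limma adjusted p = 0.233), 2.03 above the typical miRNA. It rose after median-of-ratios scaling, by 2.12 (SE 0.54, limma adjusted p = 0.0407). Without P0 replicate 1 it passed on both scales, at 1.13 in TPM (limma adjusted p = 0.0162), and on the scaled values 2.64 (0.000491).

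The last hairpins of the cluster give miR-450a-5p and miR-450b-5p. miR-450a-5p had 122, 23.7 and 111 TPM in the E14.5 libraries, against 13.6, 4.23 and 1.86 TPM in those of P0. All P0 libraries were lower, although E14.5 replicate 2 lay much nearer to them than the other E14.5 libraries did. It fell in TPM by the largest amount of the 9, a log2 change of −3.54 (SE 0.79, limma adjusted p = 0.00698), which stood −2.34 from the typical miRNA. After scaling it was −2.39 (SE 0.75, limma adjusted p = 0.0625), and −2.85 without P0 replicate 1 (0.0124), where the TPM value was −4.18 (0.000355).

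miR-450b-5p (chrX:53048044-53048065) had 345, 163 and 231 TPM in the E14.5 libraries, against 29.6, 79.8 and 95.0 TPM in those of P0. All P0 libraries were lower, and P0 replicate 1 was the lowest. The log2 fold change was −1.93 in TPM (SE 0.62, limma adjusted p = 0.0309), a fall, and −0.64 after scaling (SE 0.65, limma adjusted p = 0.501). Without P0 replicate 1 the scaled value was 0.10 (limma adjusted p = 0.833), so its direction on that scale rested on that library. The TPM value was then −1.42 (limma adjusted p = 0.00820), −0.02 from the typical miRNA of that fit.

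**Figure D1:**
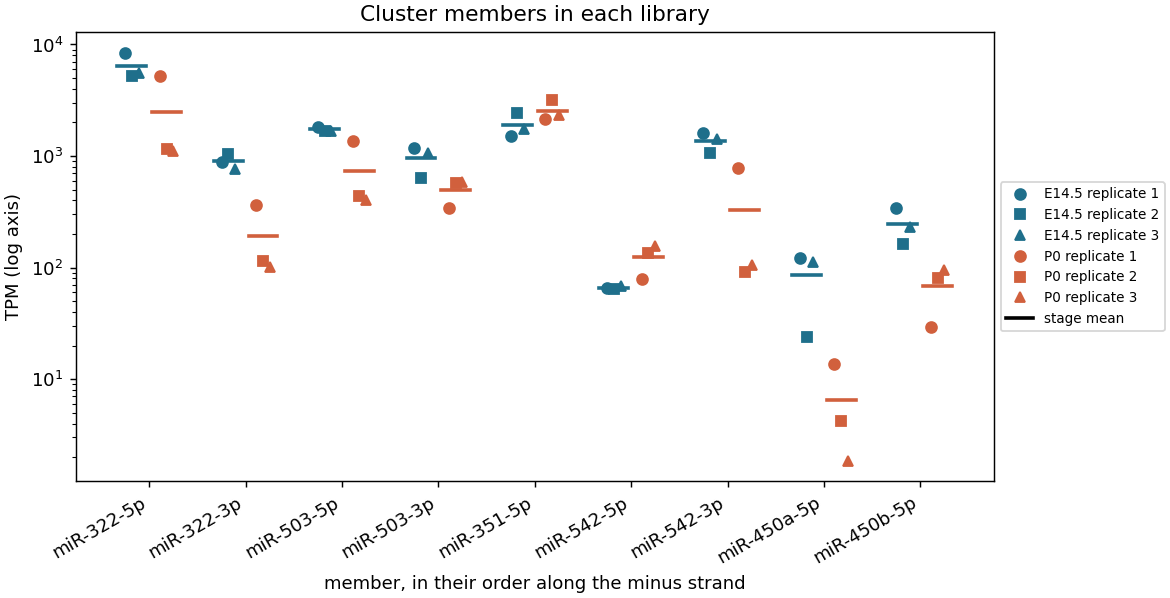
TPM of each of the 9 members (log axis) in the 3 E14.5 and 3 P0 libraries, with horizontal lines at the stage means and marker shapes for replicates. The P0 libraries lie below E14.5 for most members, miR-542-5p lies above, miR-351-5p overlaps, and P0 replicate 1 (circle) is nearest to E14.5 for miR-322-5p at 5207 TPM and miR-542-3p at 780 TPM.

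In TPM, 5 of the 9 members passed the limma test, all of them lower at P0, and 0 were called higher (0 with an unadjusted p under 0.05). Of all 670 miRNAs tested, 34.2% were called, 32.8% lower and 1.34% higher. The members' median log2 fold change was −1.72, beside −1.20 for all miRNAs. After median-of-ratios scaling, 2 of the 9 passed, both higher (miR-351-5p and miR-542-5p), where 10.9% of all miRNAs were called, 5.22% lower and 5.67% higher. Their median was then −0.43, beside −0.17 for all. No member was called on both scales, and 44 miRNAs of the 670 were.

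The stage ranges did not overlap in TPM for 7 members, 6 lower and 1 higher, where 49.6% of all tested miRNAs did not overlap, 46.4% lower and 3.13% higher. After scaling they did not overlap for 4, miR-322-3p and miR-450a-5p lower and miR-351-5p and miR-542-5p higher, against a background of 35.4%, 19.7% lower and 15.7% higher.

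Single libraries decided several calls. In TPM the number of members called was 2 without E14.5 replicate 1 (16.8% of all miRNAs) and 4 without E14.5 replicate 2 (23.9%). It was 2 without P0 replicate 2 (16.9%) and 4 without P0 replicate 3 (19.9%). Without E14.5 replicate 3 limma called 0 members, with 5 at an unadjusted p under 0.05, and 10.8% of all miRNAs. Without P0 replicate 1 it called 7 (6 lower and miR-542-5p higher), and 61.0% of all miRNAs, 53.0% lower and 7.98% higher. miR-322-3p and miR-450a-5p kept the call in 5 of these 6 fits, miR-542-3p and miR-450b-5p in 3 and miR-322-5p in 1. The scaled values without P0 replicate 1 called 6 members, 4 lower and 2 higher, beside 48.0% of all miRNAs, 25.4% lower and 22.6% higher. Upper-quartile scaling called 2 members and 9.4% of all miRNAs, and limma-voom with median-of-ratios factors 0 members (5 at an unadjusted p under 0.05) and 4.18% of all.

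In the authors' deposited table, 108 of the 1034 miRNAs (10.4%) had an adjusted p under 0.05, those higher at P0 being 5.13% of all, and among the members miR-542-5p alone did. Its log2 change in the authors' deposited table was 2.28 (SE 0.63, adjusted p 0.00533). For miR-322-3p, miR-351-5p, miR-542-3p and miR-450a-5p the authors' deposited table gave log2 fold changes of −1.53, 1.46, −1.55 and −1.96, with adjusted p-values of 0.0540, 0.0691, 0.0874 and 0.110. For miR-503-5p, miR-503-3p and miR-450b-5p the authors' deposited table gave −0.36, 0.69 and −0.24, with adjusted p-values of 0.710, 0.430 and 0.844. For miR-322-5p the authors' deposited table gave −0.61, with an adjusted p of 0.533.

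**Figure D2:**
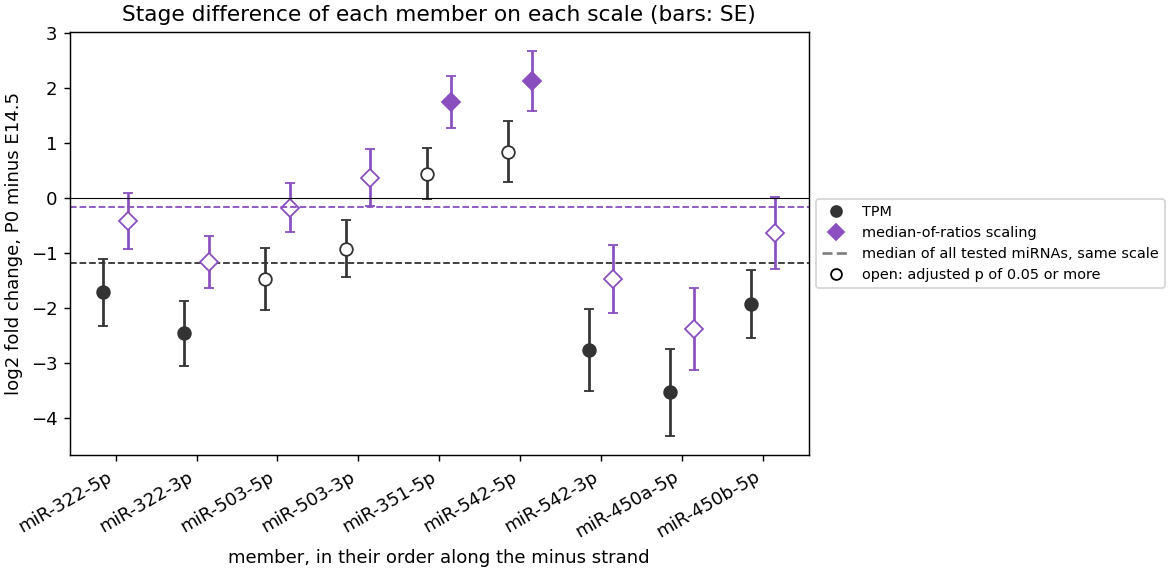
Log2 fold change of each member, P0 minus E14.5, in TPM (circles) and after median-of-ratios scaling (diamonds), with bars of 1 SE and filled symbols where the limma adjusted p was under 0.05. Dashed lines mark the median of all 670 tested miRNAs, at −1.20 and −0.17, and miR-351-5p, miR-542-5p and miR-503-3p lie above the line of each scale, miR-503-3p by 0.27 and 0.53.

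The shares of the members in their sum do not depend on how a library is scaled. miR-351-5p made up 14.4% ± 5.27 of the members' summed TPM in E14.5 libraries, against 41.2% ± 18.1 in those of P0 (SD, n = 3). Its share was 9.48%, 20% and 13.7% in the E14.5 libraries, against 20.8%, 55.3% and 47.5% in those of P0. The stages did not overlap, though P0 replicate 1 was barely above the highest E14.5 library. miR-322-5p made up 46.2% ± 5.79 over the E14.5 libraries, against 31.1% ± 16.8 over those of P0 (SD, n = 3), with 50.5% in P0 replicate 1 and 19.9% and 22.9% in replicates 2 and 3, so the stages overlapped. The share of miR-542-3p was 9.98%, 8.59% and 11.4% in the E14.5 libraries, against 7.56%, 1.58% and 2.16% in those of P0, with no overlap. Its mean went from 9.98% ± 1.39 to 3.77% ± 3.30 (SD, n = 3), or to 1.87% without P0 replicate 1. The share of miR-542-5p was 0.414%, 0.525% and 0.538% in the E14.5 libraries, against 0.769%, 2.34% and 3.20% in those of P0, also with no overlap. Its mean went from 0.492% ± 0.0678 to 2.10% ± 1.23 (SD, n = 3), or to 2.77% without P0 replicate 1. For miR-351-5p and miR-322-5p the P0 mean without that library was 51.4% and 21.4%.

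**Figure D3:**
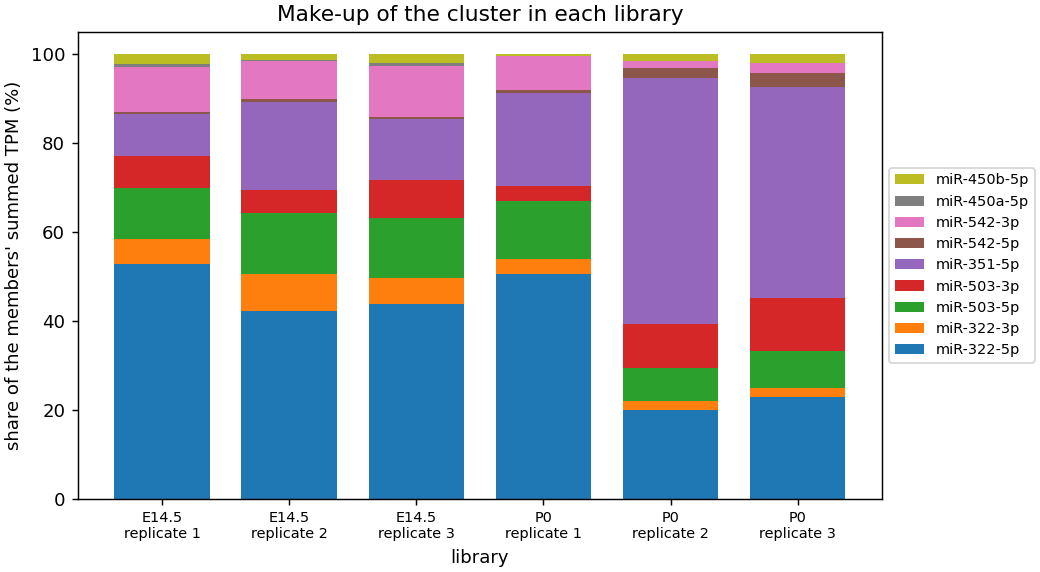
Share of each member in the summed TPM of the 9 members (vertical axis, percent) in each library. The miR-351-5p block fills 55.3% and 47.5% of P0 replicates 2 and 3, against 20.8% of P0 replicate 1, where miR-322-5p fills 50.5%.

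The order of the members by mean TPM at E14.5 was miR-322-5p, miR-351-5p, miR-503-5p, miR-542-3p, miR-503-3p, miR-322-3p, miR-450b-5p, miR-450a-5p and miR-542-5p. The steps from miR-351-5p (1902 ± 492 TPM) to miR-503-5p (1731 ± 83.8), from miR-503-3p (959 ± 287) to miR-322-3p (900 ± 144), and from miR-450a-5p (85.8 ± 54.1) to miR-542-5p (66.2 ± 1.70) were smaller than the larger SD of each pair (SD, n = 3). At P0 the order was miR-351-5p, miR-322-5p, miR-503-5p, miR-503-3p, miR-542-3p, miR-322-3p, miR-542-5p, miR-450b-5p and miR-450a-5p. Its first 6 steps of 8, from miR-351-5p (2559 ± 564 TPM) and miR-322-5p (2494 ± 2350) down to miR-542-5p (124 ± 39.9), were each smaller than the larger SD of the pair (n = 3). In P0 replicate 1 miR-322-5p was still above miR-351-5p. Over P0 replicates 2 and 3 the order changed: miR-503-3p (mean 577 TPM) stood above miR-503-5p (421), and miR-542-5p (146) above miR-322-3p (108) and miR-542-3p (98.6).

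Among all miRNAs, miR-322-5p ranked 30th, 33rd and 35th by TPM in the E14.5 libraries. It ranked 35th in P0 replicate 1 and 62nd and 61st in replicates 2 and 3. miR-351-5p moved the other way, from ranks 73, 57 and 67 at E14.5 to 53, 34 and 42 at P0. The ranks of miR-503-5p stayed between 65 and 68 in the E14.5 libraries and P0 replicate 1, and were 82 and 83 in the other P0 libraries.

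The arms of 1 hairpin come from the same precursor. As a ratio within a library, their balance does not depend on how the library is scaled, except through the 1 TPM added on the log2 scale. The Mir542 hairpin is printed because its ratio changed the most, and Mir503 because its major arm changed in part of the P0 libraries. Both are from RefSeq (GRCm38.p6), with the 5p arm and then the 3p arm in capitals. Mir542 lies at chrX:53049403-53049487 and Mir503 at chrX:53053984-53054054.
Mir542: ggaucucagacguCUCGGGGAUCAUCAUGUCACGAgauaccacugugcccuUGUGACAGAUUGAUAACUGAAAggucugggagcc
Mir503: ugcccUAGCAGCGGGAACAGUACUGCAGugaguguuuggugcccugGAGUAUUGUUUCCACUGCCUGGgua

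In Mir542 the 5p arm had 0.0415, 0.0611 and 0.0473 times the TPM of the 3p arm in the E14.5 libraries. In the P0 libraries it had 0.102, 1.48 and 1.48 times the TPM of the 3p arm. The 3p arm was thus dominant in 4 libraries, P0 replicate 1 among them, and the 5p arm in P0 replicates 2 and 3. On the log2 scale, with 1 TPM added, the ratio was −4.32 ± 0.28 over the E14.5 libraries, against −0.72 ± 2.22 over those of P0 (SD, n = 3). The difference of 3.60 had p = 0.1 in an exact two-sided permutation test (0.15 adjusted over the 3 hairpins tested), and 0.1 is the smallest p that 3 libraries against 3 allow. Leaving out P0 replicate 1, the difference was 4.88.

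In Mir322 the 5p arm was dominant in every library, with 9.47, 4.94 and 7.26 times the TPM of the 3p arm in the E14.5 libraries. In the P0 libraries the ratio was 14.4, 10.1 and 11.1, above every E14.5 library. The difference on the log2 scale was 0.74 (exact two-sided permutation p = 0.1, adjusted 0.15), again at the smallest p the design allows. In Mir503 the 5p arm had 1.56, 2.64 and 1.58 times the TPM of the 3p arm in the E14.5 libraries, against 3.94, 0.769 and 0.691 times in those of P0. P0 replicate 1 was the highest of all libraries and the other P0 libraries the lowest, and the difference of −0.55 did not separate the stages (exact two-sided permutation p = 0.6, adjusted 0.6). When P0 replicate 1 was left out, it was −1.36.

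**Figure D4:**
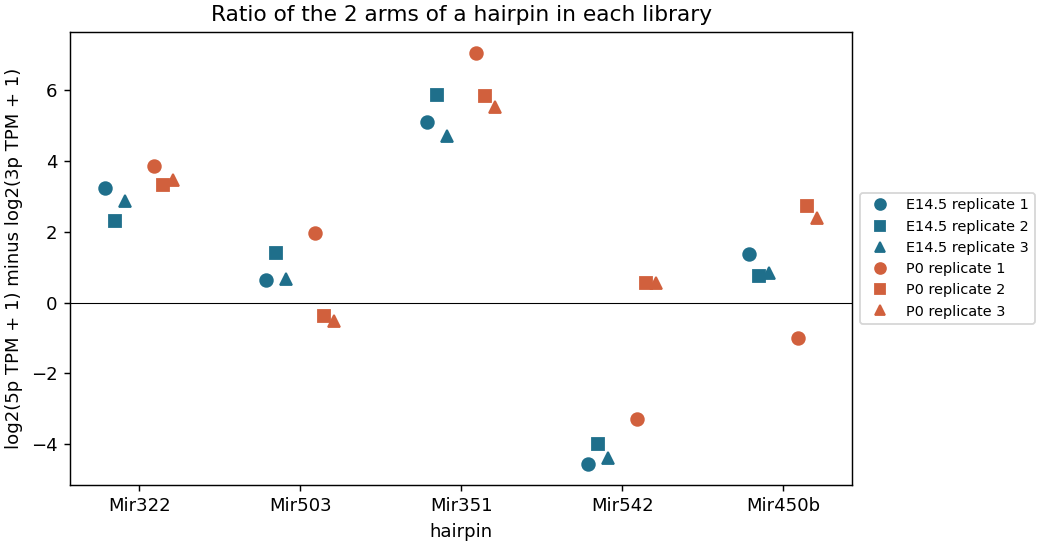
Log2 ratio of the 5p to the 3p arm, each with 1 TPM added, for 5 hairpins in each library. In Mir542 it moves from −4.32 on average at E14.5 to just above 0 in P0 replicates 2 and 3, while P0 replicate 1 (circle) stays near the E14.5 libraries, and it lies on the other side of E14.5 from those libraries in Mir503 and Mir450b.

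The 4 other arms of the hairpins were less abundant, at means between 8.30 and 74.6 TPM. In TPM, 2 of the 4 were called lower (miR-450b-3p and miR-450a-1-3p), beside 32.8% of all miRNAs, and after scaling the limma adjusted p-values of the 4 lay between 0.194 and 0.741. With P0 replicate 1 left out 3 of the 4 were called lower in TPM (53.0% of all), and on the scaled values 1 lower and 1 higher (25.4% and 22.6% of all). miR-351-3p, opposite miR-351-5p, had 43.3, 41.1 and 65.8 TPM in the E14.5 libraries, against 15.1, 55.0 and 49.7 TPM in those of P0. These ranges overlapped. Its log2 fold change was −0.48 in TPM (SE 0.64, limma adjusted p = 0.544) and 0.79 after scaling (SE 0.69, limma adjusted p = 0.441), and without P0 replicate 1 it was called higher on the scaled values, at 1.59 (0.00825). In Mir450b the 5p arm had 2.61, 1.68 and 1.78 times the TPM of the 3p arm in the E14.5 libraries, against 0.487, 7.12 and 5.48 times in those of P0.

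The base composition of the members varied with their change. GC content was 31.8% in miR-542-3p, miR-450a-5p and miR-450b-5p, 40.9% in miR-322-5p and 47.6% in miR-322-3p, which were the members called lower in TPM. It was 50% in miR-503-3p, 54.5% in miR-542-5p, 56.5% in miR-503-5p and 62.5% in miR-351-5p. Over these 9 members Spearman's rho between GC content and log2 fold change was 0.83 on either scale, and 0.70 in TPM without P0 replicate 1. The members share libraries, and the arms of a hairpin are largely complementary. Across the 582 tested miRNAs with a sequence rho was 0.38 in TPM. The 102 miRNAs with a GC content under 40% had a median log2 fold change of −2.12, and the 283 with at least 50% had −0.74.

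With the GC trend of each library removed, an alternative chosen after seeing the data, 1 of the 9 members was called, beside 10.7% of the 582 miRNAs. That member was miR-542-5p, at 1.72 (SE 0.45, limma adjusted p = 0.0335). miR-351-5p was then at 1.03 (limma adjusted p = 0.0985), miR-322-3p at −1.25 (0.0826), miR-542-3p at −0.62 (0.364) and miR-322-5p at −0.08 (0.937). Removing the trend also sets each library's level, and the median over the 582 was −0.03. These values thus stand beside those after scaling, not those in TPM. The same fit without P0 replicate 1 called 6 of the 9, 3 lower and 3 higher, beside 40.3% of 600 miRNAs, 20.3% lower and 20% higher. Those called lower were miR-322-3p, miR-542-3p and miR-503-5p, the last at −1.26 (SE 0.27, limma adjusted p = 0.00369). Those called higher were miR-351-5p, miR-542-5p and miR-450b-5p, the last at 1.30 (SE 0.31, limma adjusted p = 0.00739), against its fall in TPM. GC content differs between the arms of Mir542, at 54.5% and 31.8%, and its part in their ratio was not tested.

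**Figure D5:**
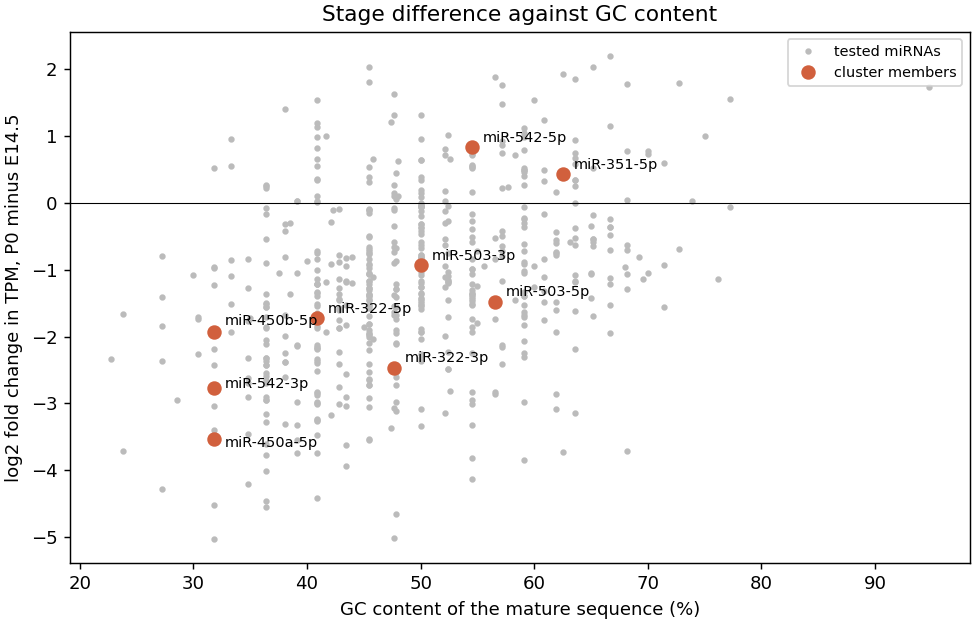
Log2 fold change in TPM, P0 minus E14.5, against the GC content of the mature sequence (percent) for 582 tested miRNAs (grey) and the 9 members (orange). The 3 members at 31.8% GC lie between −3.54 and −1.93, and miR-542-5p and miR-351-5p, at 54.5% and 62.5%, are the only members above 0.

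Other loci give miRNAs with the same seeds. miR-322-5p shares bases 2 to 8 with 5 measured miRNAs, miR-15a-5p, miR-15b-5p, miR-16-5p, miR-195a-5p and miR-497a-5p, all of which repress cell-cycle genes. In TPM 2 of the 5 were called lower (miR-15a-5p at −2.18 and miR-15b-5p at −2.37), and after scaling miR-16-5p alone was called, higher, at 1.69 (SE 0.44, limma adjusted p = 0.0418). Of all tested miRNAs 32.8% were called lower in TPM and 5.67% higher after scaling. With P0 replicate 1 left out, 4 of the 5 were called lower in TPM, where 53.0% of all were, and on the scaled values 3 lower and 1 higher, where 25.4% and 22.6% of all were. miR-16-5p was by far the most abundant, with 53803 ± 9398 TPM over the E14.5 libraries, against 70020 ± 2209 over those of P0 (SD, n = 3). Bases AGCAGC at positions 2 to 7 were sought in miRNAs with a RefSeq sequence, with 1 row kept per name. miR-322-5p and miR-503-5p together were a smaller part of this pool in the P0 libraries. The share was 14.0%, 9.84% and 13.5% in the E14.5 libraries, against 8.28%, 2.28% and 2.05% in those of P0, so every P0 library was lower.

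The seed of miR-351-5p is shared with miR-125a-5p and miR-125b-5p, which together had 20702 ± 5755 TPM over the E14.5 libraries, against 40353 ± 13962 over those of P0 (SD, n = 3). miR-125a-5p was called higher in TPM, at 1.32 (SE 0.44, limma adjusted p = 0.0355), and both were called higher after scaling, at 2.62 and 1.93. Of all miRNAs 1.34% were called higher in TPM and 5.67% after scaling. With P0 replicate 1 left out, 1 of the 2 was called higher in TPM (7.98% of all) and both on the scaled values (22.6% of all). miR-351-5p was 8.49% ± 0.835 of this seed over the E14.5 libraries, against 6.42% ± 2.39 over those of P0 (SD, n = 3), with 3.70% in P0 replicate 1 and 8.18% and 7.39% in replicates 2 and 3, and the stages overlapped. miR-322-3p shares bases 2 to 7 with miR-218-1-3p, which was called lower in TPM, at −2.04 (SE 0.74, limma adjusted p = 0.0487), and not after scaling, at −0.90 (0.379).

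The miRNAs outside the cluster closest to its mean profile were found over the 6 libraries by root-mean-square distance between centred log2(TPM + 1) values, among 420 that averaged 10 TPM or more. The closest 5 were miR-380-5p at 0.195, let-7d-5p at 0.248, miR-340-3p at 0.250, miR-155-5p at 0.251 and miR-497a-5p at 0.264. The last of these carries the miR-322-5p seed. The 9 members lay between 0.327, for miR-503-5p, and 1.30, for miR-542-5p, from their own mean profile, and the median distance of the 420 was 0.811. Of the other arms of the cluster, miR-450a-2-3p lay at 0.175, with 0 of the 420 closer, miR-450a-1-3p at 0.320, miR-450b-3p at 0.619 with 134 closer, and miR-351-3p at 1.01 with 270 closer. miR-351-5p, miR-542-3p, miR-542-5p, miR-450a-5p and miR-450b-5p were farther from it than that median.

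Marker miRNAs of other cell types also differed between the stages. The share of all tested miRNAs called lower was 32.8% in TPM and 5.22% after scaling. Both endothelial markers (miR-126a arms) were called lower in TPM, summing to between 26608 and 44921 TPM at E14.5 and between 5634 and 8158 at P0, and 1 of the 2 after scaling. Of 9 stromal markers 6 were called lower, with sums of 85580 to 102772 TPM at E14.5 and 33691 to 46708 at P0. After scaling the stromal median log2 change was −0.90, and limma called 0 of the 9 (2 at an unadjusted p under 0.05). All 5 epithelial markers (miR-200 family) were called lower, from 4122 to 23183 TPM at E14.5 to between 500.2 and 1542 at P0, and 3 of the 5 after scaling. Of 5 erythroid markers 1 was called lower, with sums of 242 to 417 TPM at E14.5 and 128 to 194 at P0, and after scaling their median log2 change was 0.17, and limma called 0 of the 5 (3 at an unadjusted p under 0.05). The 4 leukocyte markers (sums of 632 to 1202 TPM at E14.5, 454 to 629 at P0) had a median log2 change of −0.77 and the 3 muscle markers (28.0 to 69.1 and 15.4 to 133) of −0.78. In TPM limma called 0 of either list (1 leukocyte and 0 muscle markers at an unadjusted p under 0.05), and after scaling 1 leukocyte marker was called higher, beside 5.67% of all miRNAs. Several of these counts rested on P0 replicate 1. With it left out, TPM calls lower were 2 of 2 endothelial, 9 of 9 stromal, 5 of 5 epithelial, 2 of 5 erythroid and 2 of 4 leukocyte markers, beside 53.0% of all miRNAs, and 2 erythroid markers were called higher, beside 7.98%. On the scaled values without it, 1 of 2 endothelial, 5 of 9 stromal, 3 of 5 epithelial and 2 of 5 erythroid markers were called lower, beside 25.4% of all, and 2 erythroid markers and 1 leukocyte marker higher, beside 22.6%. The muscle list had a median of −0.32 in TPM and 0.99 on the scaled values in these fits. In these lists 0 markers were at 0 in all libraries. The part of these cell types in the change of miR-322-5p, miR-322-3p, miR-542-3p, miR-450a-5p and miR-450b-5p was not tested.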

How the data were processed

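Small RNAs of 6 litter pools were made as single-end libraries (QIAseq), per the labels' protocols. featureCounts, DESeq2 1.26.0 and the build mm10 are named in the submitters' processing notes. Use of molecular tags was not given in the sources used here. The authors deposited 1104 rows with TPM, a baseMean signal, a log2 change and its error, a score and p-values, per the file headers. TPM times end minus start gave whole reads (within 0.001) in 100% of values. The highest row of each of 1034 names was kept.

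log2(TPM + 1) of all 6 libraries was fitted in limma 3.58.1 under R 4.3.3 (trended variance), with stage as the only term. The fit covered the 670 miRNAs averaging 1 TPM or more. Such fold changes understate low miRNAs. The fit was also run on simulated reads with equal rises and falls, no outlying library and no GC trend. That run does not test the fit on data with those features. P-values were Benjamini-Hochberg adjusted over all 670 and called under 0.05. P-values measure the spread between litter pools. Median-of-ratios factors came from 589 rows without zeros. RefSeq (GRCm38.p6) gave sequences for 885 names, 582 of the 670 tested (86.9%). Alternatives were upper-quartile scaling, limma-voom on recovered reads, other filters, a pseudocount of 0.1, summed rows, the replicate number as a block and left-out libraries. Named miRNAs were the members, other arms, seed relatives averaging 10 TPM or more, the 5 nearest profiles, other chromosome X miRNAs and cell type markers. Members and lists were chosen with earlier results of these data known.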

Additional observations from a re-analysis of the deposited data

How the results depend on the processing

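Which members were called depended on the scaling and on other settings. miR-322-5p lost its call with a filter at 10 TPM (limma adjusted p = 0.0508), a pseudocount of 0.1 (0.0531) and limma-voom on recovered reads (0.0668). These settings called 4 members each, and 173, 201 and 181 miRNAs. From 229 miRNAs and 5 members called in TPM, the counts were 73 and 2 with median-of-ratios scaling, 63 and 2 with upper-quartile scaling, 28 and 0 in limma-voom under median-of-ratios factors (5 members at an unadjusted p under 0.05), 62 and 1 with the GC trend removed, and 65 and 0 with the GC trend removed and the replicate block (3 at an unadjusted p under 0.05). Deviations of same-numbered libraries correlated at 0.0423 to 0.193, and those of libraries with different numbers at −0.182 to 0.0770. Most of the latter values were negative. The ranges overlapped, and 3 libraries per stage are too few to settle whether samples were paired by the replicate numbers. With them as a block, 247 miRNAs and 6 members were called in TPM, miR-503-5p being added at a limma adjusted p of 0.0479, and 77 and 2 with median-of-ratios scaling. Leaving out 1 library gave 72 to 420 miRNAs and 0 to 7 members. Leaving out 1 library moved the Mir322, Mir503 and Mir542 arm differences between 0.49 and 0.96, −1.36 and −0.10, and 2.96 and 4.88. miR-503-3p turned positive at 0.36 with median-of-ratios scaling (also with the block), 0.49 with upper-quartile scaling, 0.36 in limma-voom under median-of-ratios factors and 0.15 with the GC trend removed (also with the block). Without P0 replicate 1 it was 0.85 under median-of-ratios scaling, and 0.54 once the GC trend was removed. miR-450b-5p turned positive at 0.22 with the GC trend removed (also with the block), and without P0 replicate 1 at 0.10 under median-of-ratios scaling, and 1.30 once the GC trend was removed. The cause was not tested. The other 7 members kept their direction in all 20 alternatives. Depth limits miR-450a-5p most, with 40 to 569 reads. A floor of 3 reads was 0.0863 to 1.14 TPM, and floors cover counting error only.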

Other observations

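Chromosome X also holds the cluster of miR-106a and miR-363, whose paralogues are known to drive proliferation. Among the 59 other tested miRNAs of chromosome X, 26 were called lower and 1 higher at P0 in TPM, with a median log2 fold change of −1.52, and 5 lower and 3 higher after median-of-ratios scaling, with a median of −0.81. Of all 670 tested, 32.8% were called lower and 1.34% higher in TPM, and 5.22% lower and 5.67% higher after scaling. Without P0 replicate 1 the 59 gave 34 lower and 2 higher in TPM (53.0% and 7.98% of all), and 24 lower and 10 higher on the scaled values (25.4% and 22.6% of all). All 5 rows of the miR-106a cluster kept at their X copy were called lower in TPM, with log2 fold changes from −4.66 for miR-20b-5p to −2.98 for miR-106a-5p, and 3 of the 5 after scaling. All 5 were called lower on both scales without P0 replicate 1. miR-19b-3p, which has another copy outside chromosome X, had 6381 TPM in P0 replicate 1 and 250.2 and 206 TPM in replicates 2 and 3.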
